A study of Mus musculus with 18 samples.

Results

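The 9 genes described here encode secreted or membrane-bound proteases that cut extracellular matrix and the inhibitors that hold them in check. They were chosen by name: the matrix metalloproteinase genes Mmp2, Mmp3 and Mmp14, the tissue inhibitor of metalloproteinase genes Timp1, Timp2 and Timp3, the plasminogen activator genes Plat and Plau, and the serpin gene Serpine2. They are 9 of the 19630 genes in the deposited table, and all 9 passed the filter on low counts. The study sequenced RNA of 18 mouse libraries that fall into 6 groups of 3. Fibroblasts from embryos serve as feeders, a layer on which embryonic stem (ES) cells are grown, and 2 groups are such feeders alone, control or labelled p53-defective. In another 2 groups ES cells were grown on one or the other feeder layer. The last 2 groups are ES cells freed of their control feeders, and ES cells given the integrin α5β1 inhibitor ATN161 instead of a feeder layer. The labels give no strain, age, allele or dose, do not say which alteration of p53 the feeders carry, and do not say whether the replicates came from separate cultures. The p-values may therefore cover only technical spread among libraries.

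As background, matrix metalloproteinases are zinc proteases made as inactive precursors. MMP2 cuts basement membrane and denatured collagen, MMP3 (stromelysin) cuts proteoglycans and fibronectin, and MMP14 sits in the plasma membrane, where it cuts fibrillar collagen and, with TIMP2 as a bridge, activates MMP2. TIMPs bind the active site of metalloproteinases; TIMP3 differs from the others in being held in the matrix. The plasminogen activators, tissue-type (Plat) and urokinase-type (Plau), turn plasminogen into the broad protease plasmin, and the serpin protease nexin-1 (Serpine2) traps thrombin and both activators. Fibroblasts are a main source of most of these proteins in tissue.

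On GRCm38, Mmp2 lies on chromosome 8 from 92827290 to 92853421, Mmp3 on chromosome 9 from 7445822 to 7455975 and Mmp14 on chromosome 14 from 54431598 to 54442456. Timp1 lies on chromosome X from 20870166 to 20874737, Timp2 on chromosome 11 from 118301061 to 118355411 and Timp3 on chromosome 10 from 86300412 to 86349505. Plat lies on chromosome 8 from 22757722 to 22782848, Plau on chromosome 14 from 20836662 to 20843388 and Serpine2 on chromosome 1 from 79794317 to 79858665. Timp2 and Serpine2 are on the minus strand and the others on the plus strand. Timp1 lies within Syn1 and Timp3 within Syn3, both genes on the opposite strand, and Cep295nl lies within Timp2 on the same strand. The long noncoding RNA gene Gm45472 (92852810 to 92855418, minus strand) overlaps the end of Mmp2. Since no strand is stated for the libraries, reads of partners on the opposite strand cannot be told apart. Syn1, Syn3 and Cep295nl reached at most 5.47, 0.26 and 4.49 TPM in any library (TPM is a share of all transcripts, per transcript length). Gm45472 has no values in these data, so its level is unknown.

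Sequence before the annotated start is shown for 3 genes: Mmp14 and Serpine2, which had the lowest fold changes of the set between the feeders, and Mmp3, which like Serpine2 was higher in ES cells on control feeders than in control feeders alone. Sequences are from RefSeq (GRCm38.p6) and run 5′ to 3′ on the strand of the gene, and that of Serpine2 stops where GENCODE places its first exon. Capitals mark matches, on either strand, to an AP-1 motif (TGANTCA), a GC box (GGGCGG) or a TATA box (TATAAA). Mmp3 is at chr9:7445572-7445821 (plus), Mmp14 at chr14:54431348-54431597 (plus) and Serpine2 at chr1:79858697-79858915 (minus).
Mmp3: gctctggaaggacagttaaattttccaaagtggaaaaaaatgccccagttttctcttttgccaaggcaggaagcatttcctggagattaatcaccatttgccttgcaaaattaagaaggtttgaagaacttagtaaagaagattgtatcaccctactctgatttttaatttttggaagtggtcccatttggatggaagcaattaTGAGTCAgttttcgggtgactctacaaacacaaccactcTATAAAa
Mmp14: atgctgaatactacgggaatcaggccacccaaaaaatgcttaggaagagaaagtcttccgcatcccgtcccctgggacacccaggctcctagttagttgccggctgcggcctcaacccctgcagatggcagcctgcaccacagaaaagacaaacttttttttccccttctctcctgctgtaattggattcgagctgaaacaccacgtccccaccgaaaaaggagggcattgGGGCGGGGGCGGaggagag
Serpine2: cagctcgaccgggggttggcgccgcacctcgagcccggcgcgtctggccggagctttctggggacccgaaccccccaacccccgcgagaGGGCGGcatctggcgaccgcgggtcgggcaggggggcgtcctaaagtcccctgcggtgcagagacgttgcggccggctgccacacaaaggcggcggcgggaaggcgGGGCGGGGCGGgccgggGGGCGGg
The Mmp3 sequence held 1 AP-1 match, 46 bases before the start, and 1 TATA box, 7 bases before it, and no GC box. Mmp14 held 2 GC boxes and Serpine2 held 6 in its 250 bases, of which 4 are in the stretch shown and a pair share a base. Among the 32851 RefSeq promoter windows of 250 bases, 6.75% held the AP-1 motif, 32.74% a GC box and 12.37% a TATA box. The p53 half-site, which 7.13% of windows held, had no match in the windows of the 6 members with an entry, Timp1, Timp2 and Timp3 among them. The letters alone say nothing of which factor binds.

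Library totals were 15.12 to 19.83 M (mega) counts, and each member had between 139 and 45130 counts in every library. Trp53, the p53 gene, stood at 112 to 124 CPM (counts per M) in control feeders and higher, at 244 to 326 CPM, in feeders labelled p53-defective; its RNA level does not check a defect of the protein. Levels are CPM scaled by TMM, as mean ± SD of 3 libraries unless single libraries are given. The 12 ES cell markers summed to 129 to 164 CPM in control feeders and 148 to 171 CPM in feeders labelled p53-defective, with Pou5f1 at 0 in both. Only 1 and 2 of the 12 were at 1 CPM or more on average there, and 6 and 8 were at 0. The ES cell markers summed to 3808 to 3945 CPM with control feeders and 353 to 489 CPM with feeders labelled p53-defective. Their sums were 4989 to 5121 CPM after feeder removal and 6266 to 6466 CPM with ATN161. In these groups with ES cells all 12 were at 1 CPM or more on average. The 12 fibroblast markers summed to 31988 to 38868 CPM in control feeders, 5114 to 7376 CPM in feeders labelled p53-defective, 6396 to 6728 and 16128 to 23088 CPM in the matching co-cultures, 4000 to 4403 CPM after feeder removal and 945 to 1048 CPM with ATN161. All 12 were at 1 CPM or more on average in every group, those labelled as ES cells alone included, except in feeders labelled p53-defective, where 11 were. In such bulk samples fewer cells of a type and less RNA per cell cannot be told apart.

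**Figure D1:**
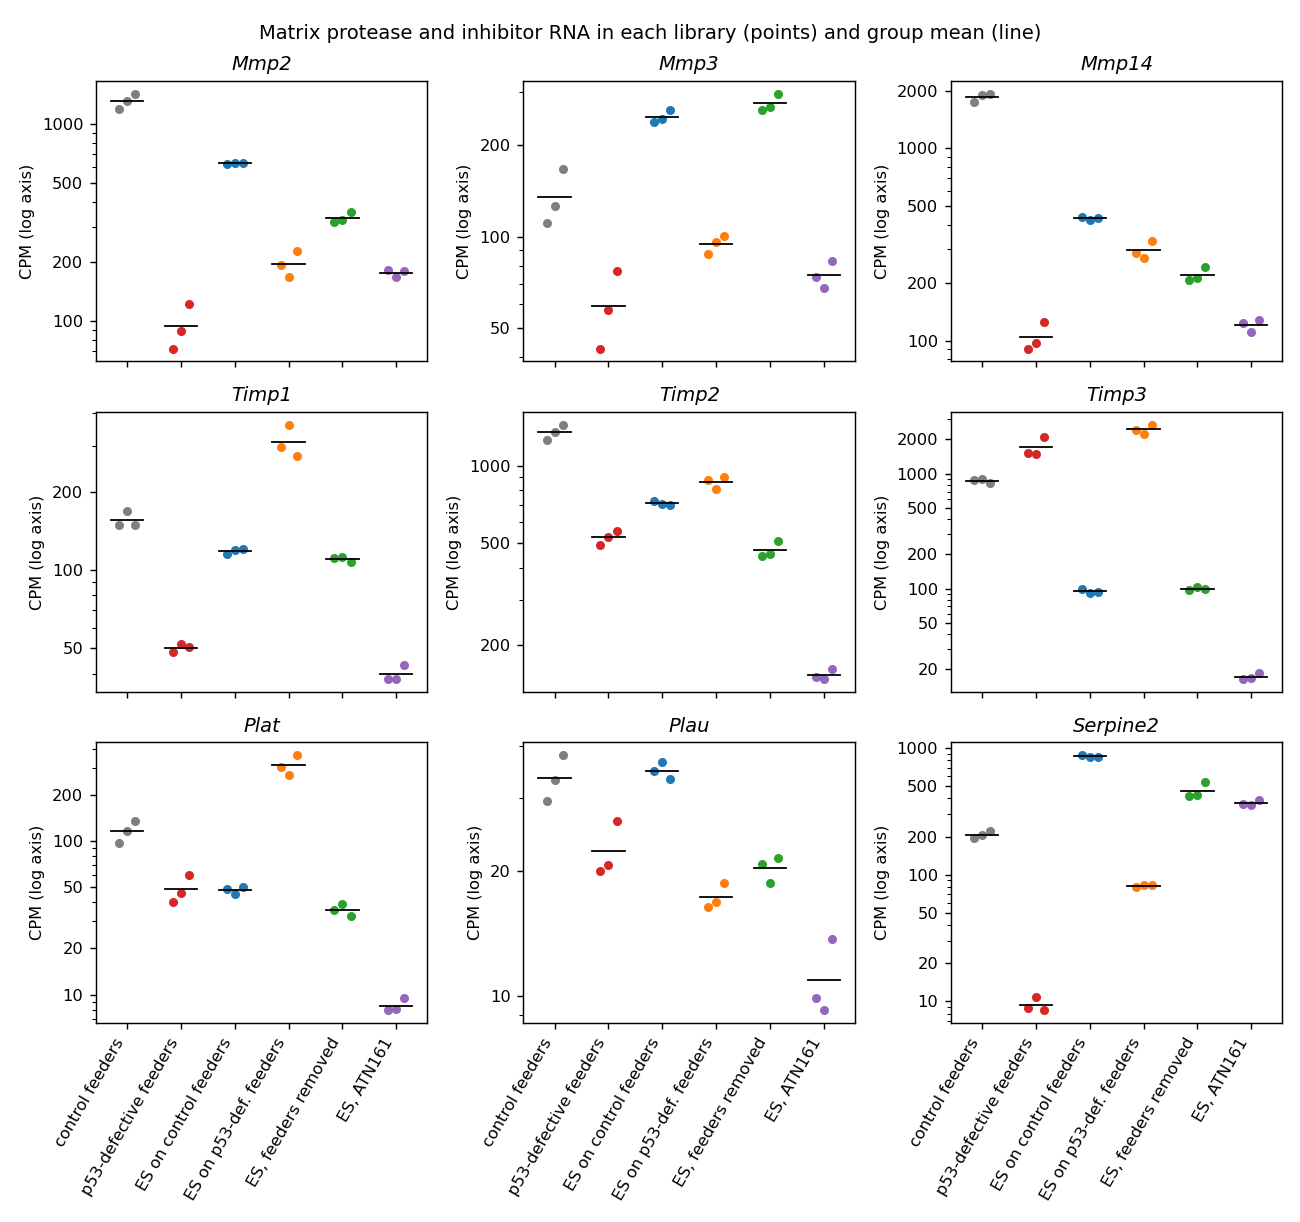
RNA level of each of the 9 genes (y axis, CPM, log axis) in the 6 groups (x axis). Points are the 3 libraries of a group and lines their mean. Timp3 and Plat peak in ES cells on feeders labelled p53-defective (2436 and 313 CPM), whereas Serpine2 peaks in ES cells on control feeders (856 CPM). By mean TPM, not shown here, Timp3 was highest in feeders labelled p53-defective alone.

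The first comparison asks how the feeders labelled p53-defective differ from control feeders before ES cells are added. Of the 9 genes, 8 fell and only Timp3 rose, with a median log2 fold change of -1.37 beside -0.01 over all 15389 genes tested. Of all genes tested, 74.3% were called in this comparison (35.9% higher and 38.4% lower), with calls by edgeR's quasi-likelihood test at an adjusted p under 0.05. The 9 genes were chosen with such results known, so the count is a description. In each of the 9 the libraries of the 2 groups did not overlap, as for 74% of all genes tested.

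With Serpine2, the metalloproteinase genes Mmp14 and Mmp2 fell furthest. Mmp14 stood at 1754, 1890 and 1924 CPM in control feeders and at 90.6, 97.2 and 125 CPM in feeders labelled p53-defective, or -4.15 ± 0.11 as log2 fold change with its SE (adjusted p = 5.59e-19). Its activation target Mmp2 stood at 1187, 1299 and 1419 CPM against 72.2, 89.1 and 122 CPM (-3.78 ± 0.14, adjusted p = 2.45e-16). Both lost most of their RNA, with groups far apart. Mmp3 fell from 111, 126 and 167 CPM to 42.7, 57.3 and 76.7 CPM (-1.19 ± 0.16, adjusted p = 1.53e-06), a smaller fall than those of Timp1, Timp2 and Plat given next.

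The TIMPs did not move together. Timp1 fell from 155 ± 11 to 50.3 ± 1.7 CPM (log2 fold change -1.62 ± 0.09, adjusted p = 1.24e-13) and Timp2 from 1354 ± 92 to 525 ± 33 CPM (-1.37 ± 0.08, adjusted p = 1.97e-13). Timp3, the matrix-bound inhibitor, stood at 874, 895 and 833 CPM in control feeders and at 1515, 1485 and 2093 CPM in feeders labelled p53-defective. It rose by 0.97 ± 0.10 on the log2 scale (adjusted p = 1.12e-08), the lowest p53-defective library lying well above the highest control library.

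In the plasminogen activator system the inhibitor fell more than the activators. Serpine2 stood at 195, 204 and 222 CPM in control feeders and at 8.82, 10.8 and 8.52 CPM in feeders labelled p53-defective (log2 fold change -4.46 ± 0.11, adjusted p = 1.4e-19). Plat fell from 116 ± 19 to 48.7 ± 10 CPM (-1.25 ± 0.13, adjusted p = 2.09e-08) and Plau from 33.5 ± 4.3 to 22.3 ± 3.5 CPM (-0.58 ± 0.12, adjusted p = 0.000204). All 9 genes kept their direction and their call when libraries were scaled on ES-specific or on feeder-specific genes (defined below). Of all genes tested 38.7% were higher and 34.1% lower on ES-specific genes, and 25.3% and 45.9% on feeder-specific genes. Both sets were chosen by levels in these same feeders, where ES-specific genes are low by definition, so this is a weak check here. Markers of other cells differed between these feeders too. The 12 macrophage markers summed to 138 to 187 CPM in control feeders and 11.1 to 15 CPM in feeders labelled p53-defective. At 0 in the latter were 6 of the 12, Adgre1, Ptprc, Tyrobp, Fcer1g, C1qa and C1qb. The 10 mesothelial markers summed to 64.3 to 74.9 and 1615 to 2484 CPM, with 9 and 8 of the 10 at 1 CPM or more on average. The part of these markers in the results between the feeders was not tested.

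**Figure D2:**
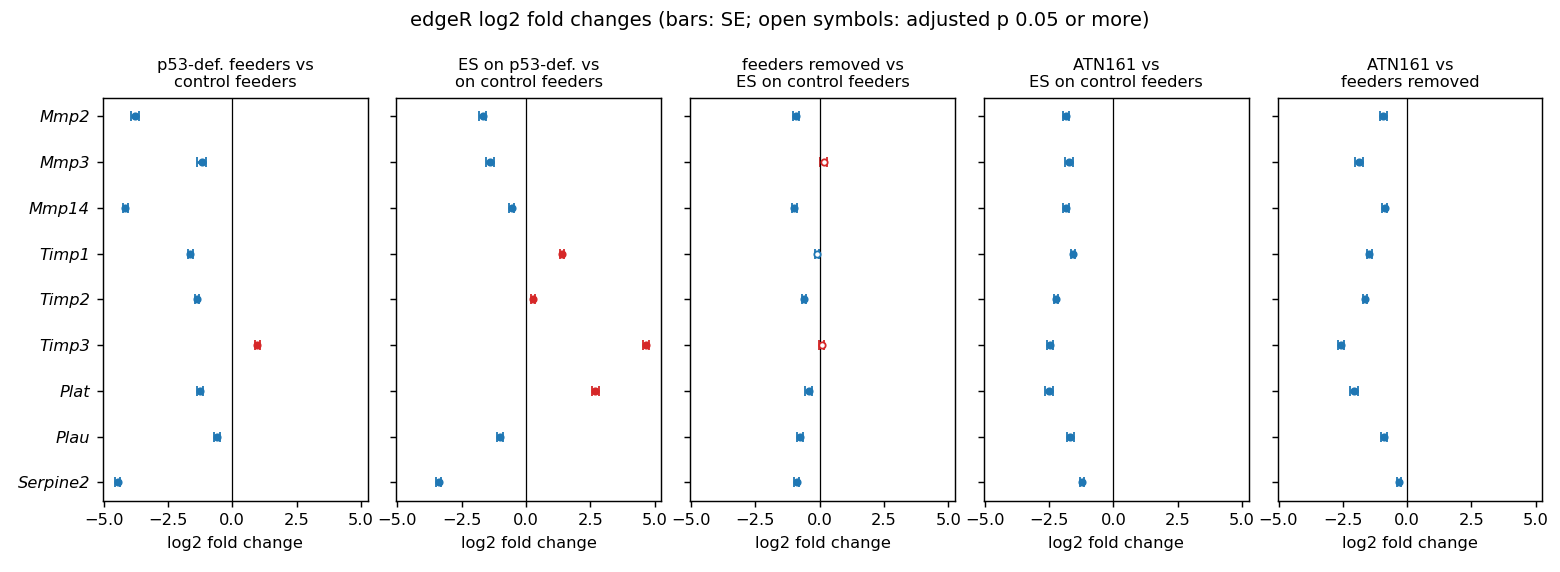
Log2 fold change (x axis, edgeR, bars are SE) of the 9 genes (y axis) in the 5 pairwise comparisons. Filled symbols passed the test; 8 genes lie left of 0 between the feeders and all 9 do so with ATN161, whereas in co-culture 4 lie right of 0.

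The second comparison asks how the co-cultures differ with the p53 label of the feeders; each of these libraries holds RNA of ES cells and feeders. All 9 genes were called, 4 higher and 5 lower on feeders labelled p53-defective (83.4% of all genes tested were called, 36.6% higher and 46.7% lower), with a median of -0.55 beside -0.18. By CPM all 3 TIMPs and Plat were higher, the 3 metalloproteinases, Plau and Serpine2 lower. The groups did not overlap for any of the 9 (84.4% of all genes tested).

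Timp3 had the widest difference. It stood at 99.8, 91.7 and 94.1 CPM in ES cells on control feeders and at 2422, 2205 and 2681 CPM on feeders labelled p53-defective (log2 fold change 4.68 ± 0.12, adjusted p = 2.68e-19). Timp1 stood at 116, 120 and 120 CPM against 296, 362 and 274 CPM (1.39 ± 0.09, adjusted p = 6.66e-13). Timp2 differed little, at 712 ± 14 against 865 ± 48 CPM (0.28 ± 0.08, adjusted p = 0.00155). The direction for Timp2 depended on the unit. In TPM it was lower on feeders labelled p53-defective, at 352, 338 and 329 against 266, 221 and 300, with no overlap.

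The activators Plat and Plau went opposite ways. Plat stood at 49.1, 45 and 50.3 CPM on control feeders and at 305, 271 and 362 CPM on feeders labelled p53-defective (log2 fold change 2.70 ± 0.14, adjusted p = 5.24e-14). Plau stood at 34.8 ± 1.6 against 17.3 ± 1.2 CPM (-1.01 ± 0.13, adjusted p = 1.29e-07). Serpine2, the inhibitor of both, stood at 876, 845 and 849 CPM against 80, 82.8 and 83.4 CPM (-3.38 ± 0.10, adjusted p = 2.01e-18), a gap in the reverse direction to that of Plat.

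Among the metalloproteinases, Mmp2 stood at 629 ± 5.5 on control feeders and 195 ± 29 CPM on feeders labelled p53-defective (log2 fold change -1.69 ± 0.13, adjusted p = 5.26e-11) and Mmp3 at 248 ± 11 and 94.6 ± 6.5 CPM (-1.39 ± 0.16, adjusted p = 1.16e-07). Mmp14, so much lower in the feeders alone, stood at 434 ± 7.8 against 296 ± 31 CPM here (-0.55 ± 0.10, adjusted p = 2.47e-05).

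These signs are relative to all genes, and the ES cell and fibroblast markers differed between the co-cultures (sums above). So did macrophage markers, at 14.4 to 15.7 CPM on control feeders and 39.7 to 42.9 CPM on feeders labelled p53-defective. Of these 12 markers 4 and 3 were at 1 CPM or more on average, and Lyz2 stood at 0.484 and 0.446 CPM. Endothelial markers summed to 135 to 139 and 11.4 to 13.3 CPM, with 4 and 2 of 10 at 1 CPM or more. They also summed to 145 to 146 CPM after feeder removal and 171 to 181 CPM with ATN161. Their sum alone therefore does not show a difference in endothelial cells. Mesothelial markers summed to 45.7 to 48.9 and 2313 to 2398 CPM, with 6 and 10 of 10 at 1 CPM or more. The part of these markers in the results was not tested. Scaling on 432 ES-specific genes, whose mean in both groups without feeders was at 10 CPM or more and at least 8-fold that in either feeder group, took the all-gene median from -0.18 up to 2.84 (85.6% of all genes tested higher and 4.17% lower). Scaling on 76 feeder-specific genes, chosen the reverse way, took it down to -2.83 (2.36% higher and 94.1% lower). The members then split into 8 higher and 1 lower, or 1 higher and 7 lower. Timp3 (higher), Serpine2 (lower) and Plat (higher, at 0.04 and no longer called on feeder-specific genes, adjusted p = 0.744) kept their direction under both scalings, and 6 of the 9 turned under one of them. Mmp2 (1.34), Mmp3 (1.64), Mmp14 (2.48) and Plau (2.02) turned to higher on ES-specific genes, below that median of 2.84. Timp1 (-1.24) and Timp2 (-2.37) turned to lower on feeder-specific genes, above the median of -2.83.

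A ratio between 2 genes of the same library does not depend on scaling. In co-culture it still depends on the mix of ES cell and feeder RNA, whose part was not tested. Ratios of TPM, which are per transcript length, were compared for 6 pairs in feeders and in co-culture by a two-sided exact permutation test of the log2 ratios, with 0.1 TPM added. Of these 12 comparisons 11 gave an exact p = 0.1, the smallest that 3 against 3 libraries allow (adjusted p = 0.109 over the 12), with no overlap between the groups. None could therefore pass the threshold.

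The ratio of Plat to its inhibitor Serpine2 was 0.0417 to 0.0463 in ES cells on control feeders and 2.55 to 3.38 on feeders labelled p53-defective, a 67.2-fold difference. In the feeders alone it was 0.391 to 0.474 against 3.27 to 5.47, a 9.16-fold difference. Inhibitor RNA thus exceeded Plat RNA in every library on or of control feeders, and the reverse held with feeders labelled p53-defective. In ES cells after feeder removal Serpine2 stood at 395 and Plat at 24.0 TPM, and with ATN161 at 279 and 5.04 TPM. The co-cultures also differed in ES cell and fibroblast markers (sums above), so the co-culture ratio cannot be read as a change within 1 cell type. The ratio of Plau to Serpine2 was 14.7-fold higher in feeders labelled p53-defective than in control feeders (1.64 to 2.65 against 0.13 to 0.147) and 5.22-fold higher in co-culture (0.177 to 0.195 against 0.0339 to 0.0373).

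The metalloproteinases were lower relative to their inhibitors. The Mmp2 to Timp2 ratio was 1.13 to 1.17 in control feeders and 0.176 to 0.263 in feeders labelled p53-defective, 5.44-fold lower, and in co-culture 1.02 to 1.08 against 0.248 to 0.299, 3.94-fold lower. The Mmp14 to Timp2 ratio was 6.95-fold lower in feeders labelled p53-defective (0.175 to 0.213 against 1.26 to 1.33) and 1.78-fold lower in co-culture (0.309 to 0.348 against 0.57 to 0.589). The Mmp3 to Timp1 ratio overlapped between the feeders, at 0.289 to 0.436 in control feeders and 0.338 to 0.584 in those labelled p53-defective (p = 0.3, two-sided exact permutation test). In co-culture it was 0.798 to 0.846 against 0.102 to 0.14, 6.96-fold lower on feeders labelled p53-defective. Between the inhibitors, the Timp1 to Timp3 ratio was 5.87-fold lower in feeders labelled p53-defective and 9.6-fold lower in co-culture with them.

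**Figure D3:**
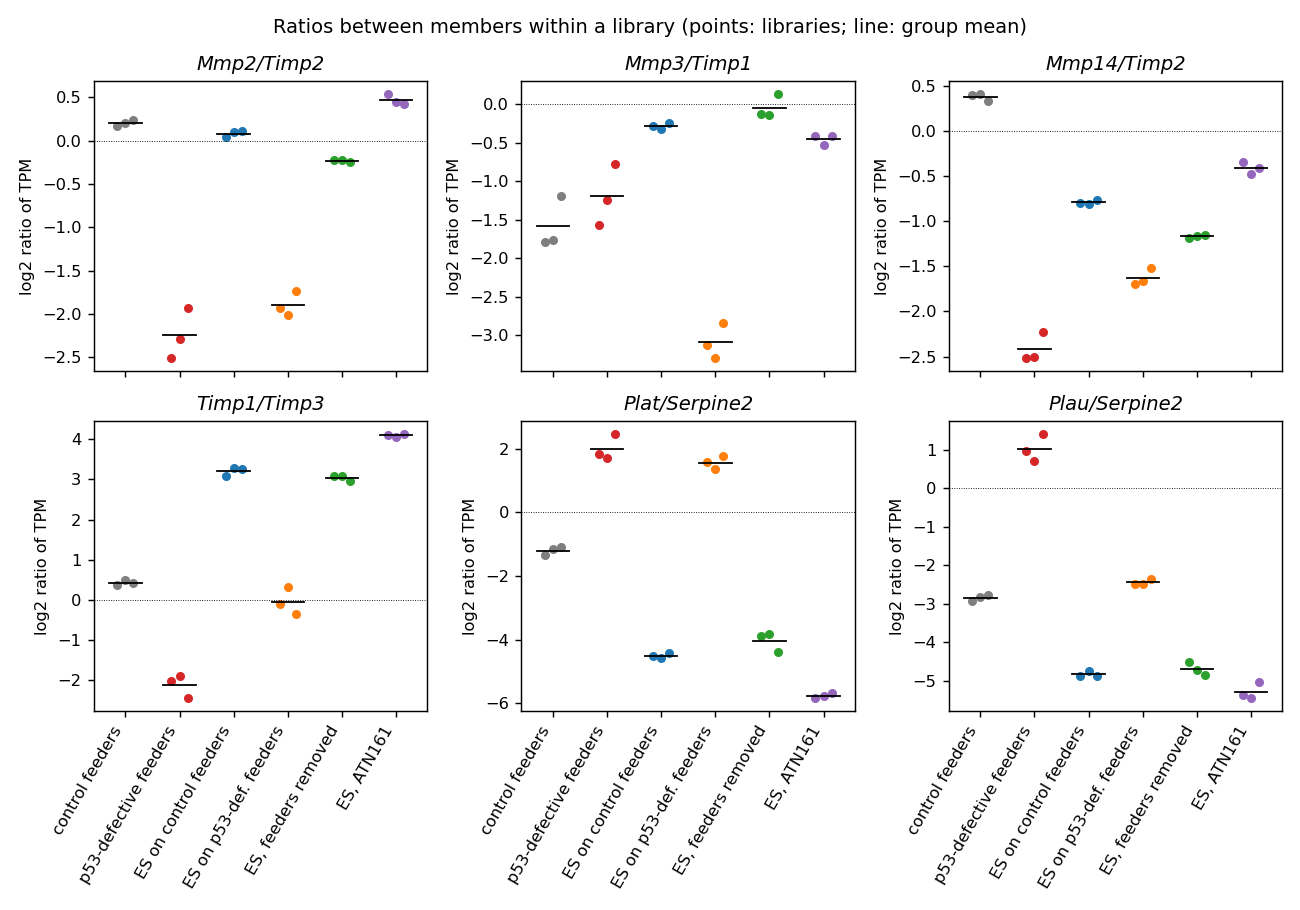
Log2 ratio of TPM between 2 genes of the set (y axis) in the 6 groups (x axis); points are libraries, lines group means, and the dotted line marks equal TPM. Plat/Serpine2 lies above 0 only in the 2 groups with feeders labelled p53-defective.

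Levels in co-culture were also set against the same feeders alone, as percent of their mean CPM with 0.5 CPM added to both; this is a description with no test. In ES cells on control feeders the median feeder-specific gene stood at 13.6% of its level in control feeders. Timp3, itself such a gene and left out of that median, stood at 11%, Mmp14 at 23.4%, Plat at 41.7%, Mmp2 at 48.4%, Timp2 at 52.6%, Timp1 at 76.5% and Plau at 104%. Mmp3 stood at 184% and Serpine2 at 413%, both above their level in the feeders alone in all 3 libraries, as were 49.4% of all genes tested.

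On feeders labelled p53-defective the median feeder-specific gene, low by its definition in cells without feeders, stood at 54.9%. Of the 9 genes 8 stood above 100% in all 3 libraries, as did 50.3% of all genes tested (median of all 114%). Serpine2 stood at 835%, Plat at 636 ± 93%, Timp1 at 613 ± 89%, Mmp14 at 283 ± 30%, Mmp2 at 206 ± 31%, Timp2 at 165%, Mmp3 at 160% and Timp3 at 144%. Plau, at 77.8 ± 5.3%, was the exception. These percentages rest on TMM-scaled CPM. By mean TPM, Timp3 (561 against 656 in the feeders alone), Timp2 (262 against 267) and Mmp3 (63.2 against 66.5) were not higher in co-culture. Mean TPM of Serpine2, Plat, Timp1, Mmp14 and Mmp2 was higher there. With other cutoffs for feeder-specific genes the medians were 23.6% and 79.6% (4-fold, 270 genes) or 3.68% and 14.1% (32-fold, 4 genes) on control and p53-defective feeders.

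**Figure D4:**
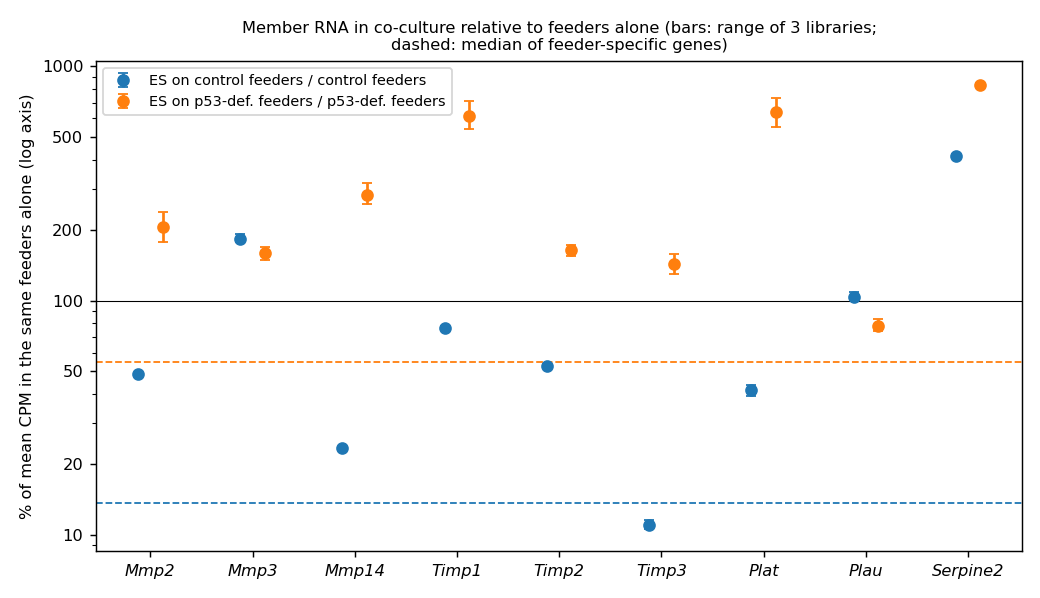
Mean CPM of each gene in co-culture as percent of its mean in the same feeders alone (y axis, log axis); bars are the range of 3 libraries, dashed lines the median of 76 feeder-specific genes (13.6% and 54.9%) and the solid line 100%. On feeders labelled p53-defective all but Plau lie above 100% in CPM, whereas mean TPM of Timp3, Timp2 and Mmp3 was not higher there.

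The next comparison asks what removing the control feeders changed. Of the 9 genes, 6 fell, none rose and 3 were not called (52% of all genes tested were called, 25.5% higher and 26.5% lower), with a median of -0.60 beside -0.01. The groups did not overlap for 8 (67% of all genes tested), Timp3 being the exception. Mmp14 went from 434 ± 7.8 to 220 ± 19 CPM (log2 fold change -0.98 ± 0.10, adjusted p = 6.19e-08), Mmp2 from 629 ± 5.5 to 333 ± 21 CPM (-0.92 ± 0.13, adjusted p = 3.73e-06) and Serpine2 from 856 ± 17 to 459 ± 68 CPM (-0.90 ± 0.09, adjusted p = 3.38e-08). Timp2 (-0.60 ± 0.08), Plau (-0.78 ± 0.12) and Plat (-0.43 ± 0.14, adjusted p = 0.0115) also fell. Mmp3 (0.15 ± 0.15, adjusted p = 0.432), Timp1 (-0.11 ± 0.08, adjusted p = 0.305) and Timp3 (0.07 ± 0.10, adjusted p = 0.586) were not called.

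Fibroblast markers were lower after removal as well (sums above). Feeder-specific genes stood at 9.02% of control feeders against 13.6% before, but their definition requires low levels after removal, so this difference is partly set by their choice. When scaled on feeder-specific genes (69.6% of all genes tested higher and 4.01% lower) Mmp14 stayed lower (-0.30, edgeR adjusted p = 0.00998) and the other 5 calls ended, with Timp2 (0.08) and Plat (0.26) turning, while Mmp3 (0.83), Timp1 (0.58) and Timp3 (0.76) were called higher. On ES-specific genes (8.19% higher and 50.1% lower) the 6 kept their calls, and Timp1 (-0.43) and Timp3 (-0.25) were called lower as well. Levels after removal entered the choice of both sets, so these scalings are a weak check here. In a fit of only these 2 groups Mmp3 (0.15, adjusted p = 0.0143) and Timp1 (-0.10, adjusted p = 0.0455) were called. After removal Serpine2 stood at 416, 425 and 538 CPM and Mmp3 at 261, 269 and 296 CPM, against 195 to 222 and 111 to 167 CPM in control feeders alone.

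The last pair of comparisons set ATN161 against the control co-culture and against feeder removal; they share the ATN161 libraries. With ATN161 all 9 genes were lower than in ES cells on control feeders (61.6% of all genes tested were called, 33.6% higher and 28% lower; median -1.84 beside 0.07). All 9 were also lower than after feeder removal (55.4% called, 28.6% higher and 26.8% lower; median -1.47 beside 0.03). The groups did not overlap for any of the 9 in either comparison (74% and 69% of all genes tested). Fibroblast markers were lowest with ATN161 as well (sums above), and their part in these results was not tested.

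Timp3 stood at 16.2, 16.8 and 18.2 CPM with ATN161 against 97.2, 103 and 100 CPM after feeder removal (log2 fold change -2.55 ± 0.12, adjusted p = 7.81e-14). Plat stood at 7.94, 8.06 and 9.5 CPM against 35.7, 38.8 and 32.7 CPM (-2.07 ± 0.16, adjusted p = 6.86e-10). Both were far below their lowest level in any other group. Mmp3 stood at 73.6, 67.5 and 83.4 CPM against 261, 269 and 296 CPM (-1.88 ± 0.16, adjusted p = 1.43e-08).

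The rest of the set was lower by less. Against feeder removal, Timp2 stood at -1.62 ± 0.08, Timp1 at -1.47 ± 0.09, Mmp2 at -0.92 ± 0.13, Plau at -0.90 ± 0.13 and Mmp14 at -0.87 ± 0.10. Serpine2 showed the smallest difference, at 368 ± 20 against 459 ± 68 CPM (-0.32 ± 0.09, adjusted p = 0.00393). On feeder-specific genes 83.6% of all genes tested were higher and 5.41% lower against co-culture, and 71.3% and 7.73% against removal. Under this scaling Serpine2 turned to 0.38 against feeder removal and was called higher (edgeR adjusted p = 0.00464). Against co-culture it turned to 0.15 and was not called (edgeR adjusted p = 0.214). The other 8 kept their direction under that scaling and under ES-specific scaling (5.27% higher and 50% lower, and 18.6% and 30%). Both sets were chosen by levels in the ATN161 and feeder-removal groups, among others, so this is a weak check here. On feeder-specific genes Mmp2 (-0.23), Mmp14 (-0.17) and Plau (-0.21) lost their call against feeder removal, and Timp1 (-0.20) against co-culture.

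By CPM, the order of levels across groups set the genes apart. Mmp2, Mmp14 and Timp2 were highest in control feeders, at 1302, 1856 and 1354 CPM. Timp1, Timp3 and Plat were highest in ES cells on feeders labelled p53-defective, at 311, 2436 and 313 CPM, and lowest with ATN161. By mean TPM, Timp3 was instead highest in feeders labelled p53-defective alone (656 against 561 in co-culture), with overlapping libraries. Serpine2 was highest in ES cells on control feeders and lowest in feeders labelled p53-defective. Mmp3 was highest after feeder removal, next in ES cells on control feeders, and lowest in feeders labelled p53-defective, where it overlapped with ATN161 (58.9 and 74.8 CPM). Plau in ES cells on control feeders (34.8 CPM) and in control feeders (33.5 CPM) overlapped too, as did Mmp2 in ES cells on feeders labelled p53-defective and with ATN161 (195 and 176 CPM) and Mmp14 with ATN161 and in feeders labelled p53-defective (121 and 104 CPM). Timp2 and Plau overlapped between feeders labelled p53-defective and feeder removal, Timp3 between feeder removal and ES cells on control feeders, and Plat between the latter and feeders labelled p53-defective. For Timp1 and Serpine2 no neighbours in the order overlapped.

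Per transcript length, the leading gene also differed by group. In control feeders Mmp14 (920 TPM), Mmp2 (815 TPM) and Timp2 (707 TPM) led, and in feeders labelled p53-defective the 3 TIMPs did (Timp3 at 656, Timp2 at 267 and Timp1 at 148 TPM). On feeders labelled p53-defective Timp3 (561 TPM) and Timp1 (534 TPM) led the co-culture. In the other ES cell groups Serpine2 led, at 772 TPM on control feeders, 395 TPM after feeder removal and 279 TPM with ATN161. Plau was the lowest of the 9 in control feeders (28.5 TPM), in both co-cultures and after feeder removal.

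By Pearson correlation of log2 CPM over the 18 libraries, which share 6 groups and so are not independent points, the genes most like each member among 11538 genes were S1pr3 (0.987) and Apbb1ip (0.984) for Mmp2, Cfb (0.973) and Efemp1 (0.958) for Mmp3, and Cyth3 (0.989) and 2510009E07Rik (0.984) for Mmp14. They were Ackr3 (0.985) and Gadd45g (0.971) for Timp1, Prrx1 (0.988) and Tgfbr2 (0.987) for Timp2, and Tmem63a (0.993) and Kcnab1 (0.988) for Timp3. For Plat they were Smarca2 (0.992) and Tns1 (0.99), for Plau Il1r1 (0.928) and Rgmb (0.916), and for Serpine2 Tmem35a (0.993) and Icam1 (0.987). Within the set, Mmp2 and Mmp14 were most alike (0.928) and Timp3 and Serpine2 least (-0.721).

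Other genes of the same systems are given by lists. Between the feeders, of 15 other metalloproteinases tested 8 fell and 4 rose (median -0.90), of 26 ADAM and ADAMTS proteases 16 fell and 7 rose (median -1.23), and of 11 other plasminogen system genes 5 fell and 4 rose (median -0.17). Of 21 other protease inhibitors 16 fell and 3 rose (median -1.59), and of 26 cathepsins, procollagen proteinases and activators 19 fell and 3 rose (median -2.04). Over all genes tested 38.4% fell and 35.9% rose, with a median of -0.01.

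Named by rule, Mmp23 fell from 56.3 to 1.94 CPM (log2 fold change -4.85 ± 0.14), Mmp11 from 246 to 40.4 CPM (-2.61 ± 0.12) and the macrophage metalloelastase Mmp12 from 14.9 to 0.505 CPM (-4.86 ± 0.18), the last beside the macrophage markers above. The bone cathepsin Ctsk fell from 398 to 1.31 CPM (-8.23 ± 0.15), the lysosomal protease Ctsd from 2838 to 437 CPM (-2.70 ± 0.07) and Adam33 from 188 to 0.523 CPM (-8.46 ± 0.19). In the plasminogen system the urokinase receptor gene Plaur rose from 21.5 to 89.6 CPM (2.06 ± 0.11), while Mrc2, a collagen uptake receptor that associates with it, fell from 615 to 105 CPM (-2.55 ± 0.11) and the clearance receptor gene Lrp1 from 1562 to 453 CPM (-1.78 ± 0.14). The edgeR adjusted p of these 9 genes was 3.14e-10 or lower.

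In co-culture, of the other metalloproteinases 9 were higher and 5 lower on feeders labelled p53-defective (median 0.71), of the ADAM and ADAMTS proteases 13 and 10 (median 0.31), and of the plasminogen system genes 7 and 2 (median 1.004). Of the other inhibitors 9 were higher and 12 lower (median -1.39) and of the cathepsin and procollagen list 11 and 11 (median -0.10), beside 36.6% higher, 46.7% lower and a median of -0.18 over all genes tested. Like the members, these signs are relative to all genes. Anxa2 and S100a10 encode a cell-surface complex that binds plasminogen and its activator. Anxa2 (294 against 1859 CPM, log2 fold change 2.66 ± 0.09) and S100a10 (125 against 583 CPM, 2.22 ± 0.10) were higher. The serpin gene Serpinf1, listed with the other inhibitors, was higher too (156 against 459 CPM, 1.56 ± 0.07). The gelatinase Mmp9 (37 against 1.84 CPM, -4.32 ± 0.17), the membrane serine protease St14 (120 against 11 CPM, -3.44 ± 0.08) and its inhibitor Spint1 (80.5 against 11.5 CPM, -2.80 ± 0.08) were lower.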

How the data were processed

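RNA of 18 libraries was isolated with Trizol and built with a TruSeq mRNA kit, per the labels. Tools in the submitters' processing notes, given there without roles, were StringTie 1.3.3b, HISAT2 2.1.0, DESeq2 1.2.10 and SAMtools 1.4. The deposited table gives expected counts, FPKM, TPM and a normalised count signal per RefSeq transcript (75416) in each library, per the file headers; the deposited FPKM, normalised counts (a signal) and group means were not used. Expected counts deposited by the authors were summed over the transcripts of a gene and rounded (19630 genes, 148 without a symbol); TPM deposited by the authors was summed likewise. After filterByExpr 15389 genes were tested with edgeR 4.0.16 in R 4.3.3 (quasi-likelihood, TMM, robust, two-sided, all 18 libraries in 1 fit, Benjamini-Hochberg). Each SE is the log2 fold change over the root of F. The script was tested on simulated data. Precision is limited by 3 libraries a group.

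The members, gene lists, comparisons and tests were chosen with earlier results of these data known. Genes were named by rule: the 9 members; per list the called genes with the smallest p, no overlap and at least 10 CPM in a group (up to 3 between feeders and in co-culture, otherwise 2), of which the text gives some; and the 2 most correlated genes per member. Alternatives were DESeq2 1.42.0 size factors and Wald test, limma-voom (limma 3.58.1), no filter, a replicate block, at least 5 CPM in 3 libraries, a fit of the compared groups alone, dropping each library in turn, and scaling on ES-specific or feeder-specific genes.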

Additional observations from a re-analysis of the deposited data

Results flagged for a closer look

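The effect of the feeder label differed between co-culture and feeders alone, by the interaction term of the edgeR fit, for 8 of the 9 genes (73.6% of all genes tested were called, 38.8% higher and 34.8% lower). The co-culture effect minus the feeder effect on the log2 scale was 3.95 ± 0.19 (SE) for Plat, 3.71 ± 0.15 for Timp3, 3.60 ± 0.15 for Mmp14, 3.02 ± 0.12 for Timp1, 2.095 ± 0.182 for Mmp2, 1.65 ± 0.11 for Timp2 and 1.08 ± 0.14 for Serpine2, and the adjusted p was 3.59e-07 or lower for each of these. For Plau it was -0.43 ± 0.18 (adjusted p = 0.0334), a call that ended without any 1 of the libraries of ES cells on control feeders, replicate 1 or 2 of ES cells on feeders labelled p53-defective, replicate 1 or 2 of control feeders, or replicate 3 of feeders labelled p53-defective (range -0.53 to -0.29, edgeR adjusted p 0.0126 to 0.113 over all left-out libraries). Mmp3, at -0.20 ± 0.22 (adjusted p = 0.44), was not called. Between feeders alone Plat, Timp1 and Timp2 fell with the p53-defective label, and in co-culture they were higher with it by CPM. The higher level in co-culture did not hold when scaled on feeder-specific genes (Plat 0.04 with edgeR adjusted p = 0.744, Timp1 -1.24 and Timp2 -2.37). By TPM, Timp2 was lower with that label in co-culture as well. The 4 genes Plat, Timp3, Mmp14 and Timp1 kept a positive difference on ES-specific genes (84.3% of all genes tested higher and 3.57% lower) and on feeder-specific genes (5.45% and 78.6%). Levels in the feeders alone entered the choice of both sets, so this is a weak check. ES cell and fibroblast markers moved with the same groups, and their part in the difference was not tested.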

How the results depend on the processing

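The number of members called (9, 9, 6, 9, 9 and 8 in the order of the comparisons, the interaction last) stayed within 1.5 times under every alternative, and so did the number of all genes called. Each of the 12 ratios kept its direction with 1 TPM added, with gene counts in place of TPM and without any single library. Between the feeders, in each of the 2 ATN161 comparisons and in co-culture, no member changed its call or direction with another tool, filter, block, fit of fewer groups or left-out library. TPM was not one of these alternatives, and by TPM Timp2 turned to lower in co-culture.

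Scaling on ES-specific genes turned, in co-culture, Mmp2 (1.34), Mmp3 (1.64), Mmp14 (2.48) and Plau (2.02), after feeder removal Mmp3 (-0.17) and Timp3 (-0.25), and in the interaction Mmp3 (2.74) and Plau (2.50). Scaling on feeder-specific genes turned, in co-culture, Timp1 (-1.24) and Timp2 (-2.37), after feeder removal Timp1 (0.58), Timp2 (0.079) and Plat (0.26), with ATN161 Serpine2 (0.15 against co-culture and 0.38 against removal), and in the interaction Mmp2 (-0.29), Timp2 (-0.75) and Serpine2 (-1.32). The all-gene medians moved with these scalings. Without single libraries, Timp3 after feeder removal ranged from -0.002 to 0.056 and Mmp3 in the interaction from -0.38 to 0.036. The Plau interaction call also ended with no filter on low counts (-0.39, edgeR adjusted p = 0.0529); the cause was not tested. The 4-fold and 32-fold cutoffs moved the feeder-specific median after removal from 9.02% to 14.5% and 3.29%.

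Same-numbered libraries correlated in their deviations from the group means at 0.32, 0.091 and 0.406 between the feeders and at -0.137 to -0.044 in co-culture, with 2 and 0 of 3 libraries closest to their own number. Between ATN161 and feeder removal they correlated at 0.049, 0.233 and 0.336, with 3 of 3 closest to their own number, a hint from the data and not from the design. Neither the labels nor a correlation above 0.1 in every pair showed that the numbers pair the samples; with a replicate block every member kept its call and direction.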

Other observations

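In ES cells without feeders the other protease and inhibitor lists had more genes called lower than higher in most comparisons. With ATN161 against feeder removal, 0 of 26 ADAM and ADAMTS genes were higher and 17 lower, 0 of 11 plasminogen system genes higher and 8 lower, 6 of 21 other inhibitors higher and 12 lower, 4 of 26 cathepsin and procollagen genes higher and 8 lower, and 6 of 15 other metalloproteinases higher and 4 lower (28.6% and 26.8% of all genes tested). After feeder removal the same lists had 1 higher and 10 lower, 0 and 8, 3 and 7, 4 and 13, and 1 and 9 (25.5% and 26.5% of all genes tested). A few genes named by rule were higher. The metalloprotease meprin β gene Mep1b was higher after feeder removal than in co-culture (29.4 against 6.78 CPM, log2 fold change 2.11 ± 0.13, edgeR adjusted p = 9e-10). With ATN161, the membrane-anchored metalloproteinase gene Mmp17 (26.2 against 12.7 CPM, 1.04 ± 0.12, edgeR adjusted p = 2.1e-07) and the serine protease gene Htra1 (168 against 90.2 CPM, 0.90 ± 0.07, edgeR adjusted p = 1.62e-09) were higher than after feeder removal, whereas all 9 members were lower. The collagenase gene Mmp13 (1.97 against 17.5 CPM, -3.15 ± 0.18) and the aggrecanase-family gene Adamts1 (4.9 against 53.9 CPM, -3.46 ± 0.16) were lower there, like the members, each with an edgeR adjusted p of 4.03e-12 or lower.

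Timp1 reads were assigned to 4 RefSeq transcripts. The share of the gene's TPM in the second most abundant transcript was 41.9 ± 0.2% in control feeders and 41.2 to 41.6% on average in the 3 ES cell groups without feeders labelled p53-defective. It was 34.1 ± 3.8% in feeders labelled p53-defective and 32.5 ± 0.8% in co-culture with them (mean ± SD, n = 3). The difference was not tested, and reads shared by transcripts of a gene are divided by estimate.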
